A study of Mus musculus with 12 samples.

Results

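Man1a2 lies on mouse chromosome 3, and 39 genes that flank it there were followed in newborn mice that lacked it. They were chosen by symbol, as neighbours of the locus, from the 24421 gene symbols in each count table, and all 39 were present. Bulk RNA was sequenced from liver and lung of newborns killed within the first hour of life. Man1a2+/- mice carrying the Man1a2tm1.1Ahe allele, a deletion of exon 2, were bred, and their Man1a2+/+ (WT) and Man1a2-/- (null) offspring were compared. Each of the 4 groups (WT liver, null liver, WT lung, null lung) held 3 libraries, 12 in all. No heterozygous library was analysed here, and the sources used here give neither the strain background nor the litter of any pup. No treatment was given, so every group shared the breeding scheme and the hour of harvest.

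Man1a2 encodes a Golgi mannosidase that removes mannose from immature N-glycans before branching begins. The genes around it have no common pathway. They include ubiquitin ligases (Trim45, Trim33), nuclear kinases and transcription factors (Hipk1, Tbx15, Nhlh2), immune surface proteins (Cd2, Cd101, Vtcn1), muscle proteins (Casq2, Ampd1) and the small GTPase Nras. A deleted gene and its neighbours are inherited together, so a gene close to the allele can differ between null and WT mice in each tissue in which it is expressed. The comparison therefore asked which neighbours changed alike in both null tissues. The tables hold no sequence variants, and the origin of the DNA flanking the allele was not tested.

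In the GRCm38 assembly (GENCODE M21), Man1a2 occupies chromosome 3 from 100562208 to 100685503 on the minus strand. On the centromeric side the members run from Reg4, 2.33 Mb away, through Zfp697, Hao2, Wars2, Tbx15, Wdr3 and Gdap2 to Fam46c, 0.073 Mb away. On the telomeric side they run from Vtcn1, 0.14 Mb away, to Lrig2, 3.71 Mb away. Several members nearly touch. Trim45 and Ttf2 are 1939 bp apart, Olfml3 and Hipk1 1813 bp, Ptpn22 and Rsbn1 1872 bp, and Rsbn1 and Phtf1 1473 bp.

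Wdr3 with Gdap2, and Dclre1b with Ap4b1, are head to head pairs, which start beside each other on opposite strands. In GENCODE the starts of Wdr3 and Gdap2 are 26 bp apart and those of Dclre1b and Ap4b1 76 bp apart. The RefSeq start regions of both pairs (GRCm38.p6) are shown because the genes of each pair share a start region and their changes are set side by side later. The plus strand is printed 5′ to 3′, and capitals mark the stretch between the RefSeq starts, which lie 56 bp apart for Wdr3 and Gdap2 and 130 bp apart for Dclre1b and Ap4b1.
Gdap2 and Wdr3, chr3:100162213-100162512: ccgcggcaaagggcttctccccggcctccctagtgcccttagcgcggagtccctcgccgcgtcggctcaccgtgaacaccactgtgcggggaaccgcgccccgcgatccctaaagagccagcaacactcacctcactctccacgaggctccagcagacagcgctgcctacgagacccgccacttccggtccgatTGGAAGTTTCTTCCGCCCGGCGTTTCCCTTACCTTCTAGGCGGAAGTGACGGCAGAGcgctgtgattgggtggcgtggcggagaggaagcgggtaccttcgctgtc
Ap4b1 and Dclre1b, chr3:103809267-103809566: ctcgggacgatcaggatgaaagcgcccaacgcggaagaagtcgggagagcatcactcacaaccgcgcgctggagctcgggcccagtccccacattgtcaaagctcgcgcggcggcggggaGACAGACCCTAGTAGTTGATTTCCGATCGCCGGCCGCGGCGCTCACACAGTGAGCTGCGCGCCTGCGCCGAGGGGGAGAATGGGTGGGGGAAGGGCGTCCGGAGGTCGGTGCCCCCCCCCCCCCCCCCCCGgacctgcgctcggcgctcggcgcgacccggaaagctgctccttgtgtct

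Both windows are rich in CpG, with 31 CpG in 300 bases for the first and 36 for the second, against a median of 7.0 over 32851 RefSeq windows of that length. The letters CCGGAA, sought on both strands, occur 1 time in each window and in 14.9% of all windows. CCAAT occurs 2 times in the Gdap2 and Wdr3 window and 0 times in the other, and 37.4% of all windows hold it. GGGCGG occurs 1 time in the Gdap2 and Wdr3 window and 0 times in the other, and 35.7% of all windows hold it. These are matches of letters only.

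Depth ran from 26759463 to 42914295 counted reads a library. The livers carried their defining markers, with 134583 to 165686 CPM (counts scaled to library size) summed over 6 hepatocyte genes. Summed over 7 lung epithelial genes, 5 lung libraries held 24729 to 31547 CPM. The null lung library numbered 1 held 626 CPM. That library and null liver 1 also held muscle RNA. The 7 skeletal muscle genes summed to 6188 CPM in null liver 1, against 5.003 to 8.40 in the other livers, and to 13459 in null lung 1, against 26.1 to 34.2 in WT lungs and 67.9 and 55.1 in the other null lungs. The 7 cardiac muscle genes summed to 364 CPM in null liver 1 and 25095 in null lung 1, against at most 10.2 and 914 in the others. The counts of members called, and the member changes that turned on these libraries, are given with and without them.

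Man1a2 itself had 67.5, 40.7 and 52.5 CPM in WT liver and 40.4, 36.8 and 38.7 in null liver. In lung it had 137, 99.5 and 141 CPM in WT and 56.7, 64.3 and 66.3 in null mice. Every null library was below every WT library of its tissue, and reads remained in all of them. The counts include exons outside the deleted part, so they do not check the deletion itself. The log2 fold change was -0.47 ± 0.17 (SE) in liver (adjusted p = 0.0809) and -1.01 ± 0.18 in lung (adjusted p = 0.0614), from quasi-likelihood fits in edgeR, with p-values adjusted over all genes after Benjamini and Hochberg. The mean of both changes was -0.74 ± 0.13 (adjusted p = 0.00322).

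Levels of the members can be compared as CPM per kb of exon. In WT lung, Tspan2, a tetraspanin, was highest at 72.0 ± 9.81 (SD, n = 3), followed by the membrane protein Ptgfrn at 39.5 ± 4.38, Nras at 23.5 ± 0.837, Olfml3 at 22.7 ± 0.303 and Hipk1 at 20.8 ± 1.88. The spreads of Nras, Olfml3 and Hipk1 touched or nearly touched. In WT liver no member exceeded 13.4 ± 2.73, the level of Ap4b1, a subunit of the AP-4 adaptor, and Fam46c (12.5 ± 2.46), Hao2 (11.4 ± 4.94) and Bcas2 (10.9 ± 0.470) lay within its spread, with Hipk1 (10.4 ± 1.54) next. Tspan2 stood at 1.34 ± 0.173 in WT liver and Ptgfrn at 1.35 ± 0.221.

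At a minimum expression set for each fit, 29 members could be tested in liver, 34 in lung, 28 in both and 35 over all libraries. A member was called changed at an adjusted p under 0.05 over all genes and a change of at least 1.2-fold. In liver 12 of 29 members were called (41.4%), where 26.9% of all genes tested were called. Hao2, Fam46c, Hipk1, Rsbn1, Lrig2, Trim33 and Casq2 were higher in null mice, and Trim45, Cd2, Phtf1, Ttf2 and Gdap2 were lower. The median absolute log2 fold change was 0.43 over the members and 0.34 over all genes tested. Without null liver 1 the count was 14 of 29 (7 higher, 7 lower), against 23.8% of all genes. It fell to 4 when WT liver 1 or WT liver 3 was left out, where 14.8% and 11.3% of all genes were called. With all 12 libraries in 1 fit it was 7, against 11.9% of all genes, and Hao2, Trim33, Casq2, Ttf2 and Gdap2 lost their calls.

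In lung 1 of 34 members was called, Igsf3, where 0.327% of all genes were called. Without null lung 1 the count rose to 18 of 34 members (8 higher, 10 lower), or 52.9%, against 37% of all genes. With any other lung library left out 0 members, and 0% of all genes, were called by edgeR. With all libraries 15 of 34 members had an unadjusted p under 0.05, against 25% of all genes. DESeq2 called 10 of 35 members and 12% of all genes. The lung count thus depended on null lung 1, the library with muscle RNA and few epithelial transcripts, whose part in it was not tested further.

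A fit over all 12 libraries tested the mean of the liver and lung changes. It called 18 of 35 members (51.4%), 8 higher and 10 lower, against 26% of all genes. Without both libraries numbered null 1 it called 19 of 35 (9 higher, 10 lower), against 39.6%. Liver and lung of the same genotype and number tended to deviate from their group means together. They may be tissues of 1 pup, which the labels do not state, and the fit does not allow for this. When liver and lung of each number were averaged before the test (limma), 11 members were called, against 13.7% of all genes. These 11 were Fam46c, Hipk1, Igsf3, Rsbn1 and Lrig2, higher in null mice, and Cd2, Trim45, Ttf2, Olfml3, Magi3 and Phtf1, lower. Gdap2, Tbx15, Casq2, Sike1, Bcas2, Ap4b1 and Zfp697 were called by the fit over all 12 libraries but not after averaging. Values on the mean given later come from that fit unless marked otherwise.

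**Figure D1:**
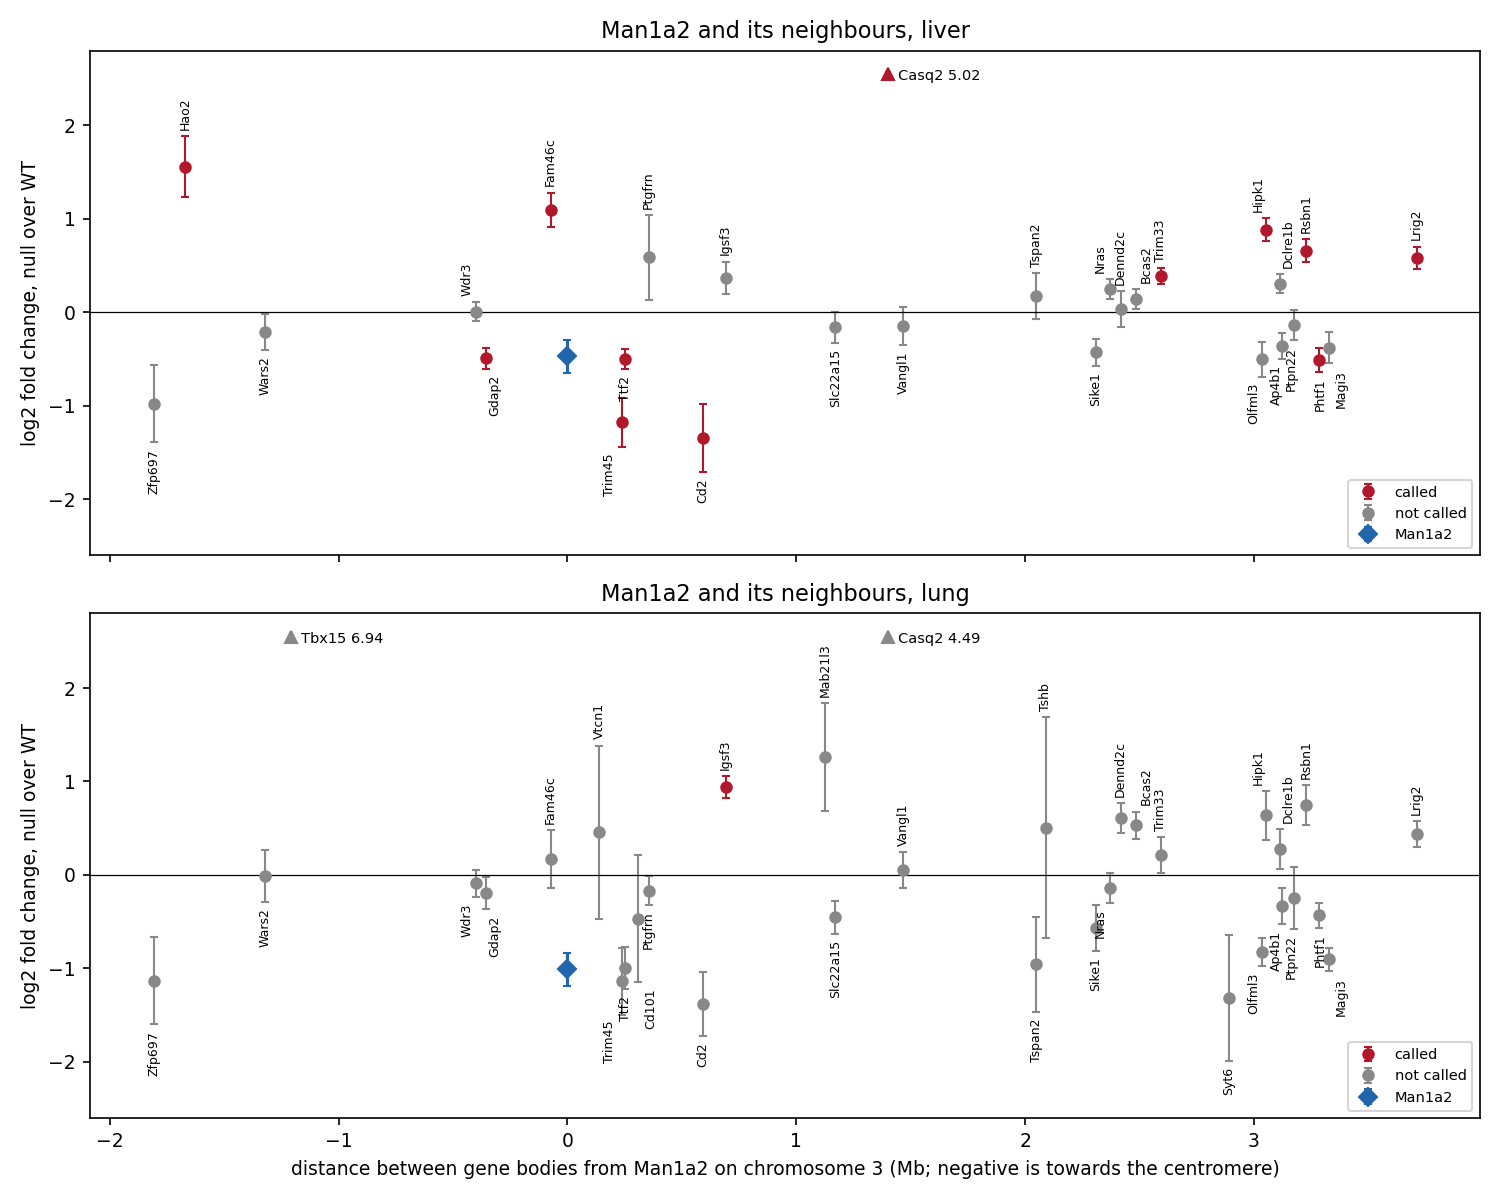
Log2 fold change (null over WT) of Man1a2 (blue diamond) and each tested neighbour against its distance from Man1a2 in Mb, in liver (top) and lung (bottom). Points are estimates with SE bars, red where called and grey where not, and triangles at the top edge mark Casq2 and Tbx15, whose values are written beside them. In liver 7 called members lie above 0 and 5 below, interspersed along the segment.

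A member was counted as changed alike when liver and lung each had an unadjusted p under 0.05, a change of at least 1.2-fold and the same direction. This held for 9 of 28 members (32.1%), against 13.1% of all genes tested in both tissues. Casq2, Hipk1, Lrig2 and Rsbn1 were higher in both null tissues, and Cd2, Olfml3, Phtf1, Trim45 and Ttf2 were lower. Without both libraries numbered null 1 the count was 13 of 28, against 22.4% of all genes, with Magi3, Sike1, Trim33 and Zfp697 added. Leaving out each library in turn gave 4 to 13, with 4 when WT lung 1 or WT lung 3 was left out and 8.13% and 7.51% of all genes counted. Disregarding size, 23 of 28 members (82.1%) had the same sign in both tissues, against 69.3% of all genes.

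The null and WT libraries did not overlap for 18 of 29 members in liver (46.6% of all genes) and for 18 of 34 in lung (36.1%). They were apart in both tissues, in the same direction, for 11 of 28 members, against 18% of all genes. These 11 were Casq2, Igsf3, Lrig2 and Rsbn1, above WT, and Cd2, Olfml3, Phtf1, Sike1, Trim45, Ttf2 and Zfp697, below it. With 3 libraries against 3, the two-sided exact permutation test gives p = 0.1 for each such member and cannot go lower.

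**Figure D2:**
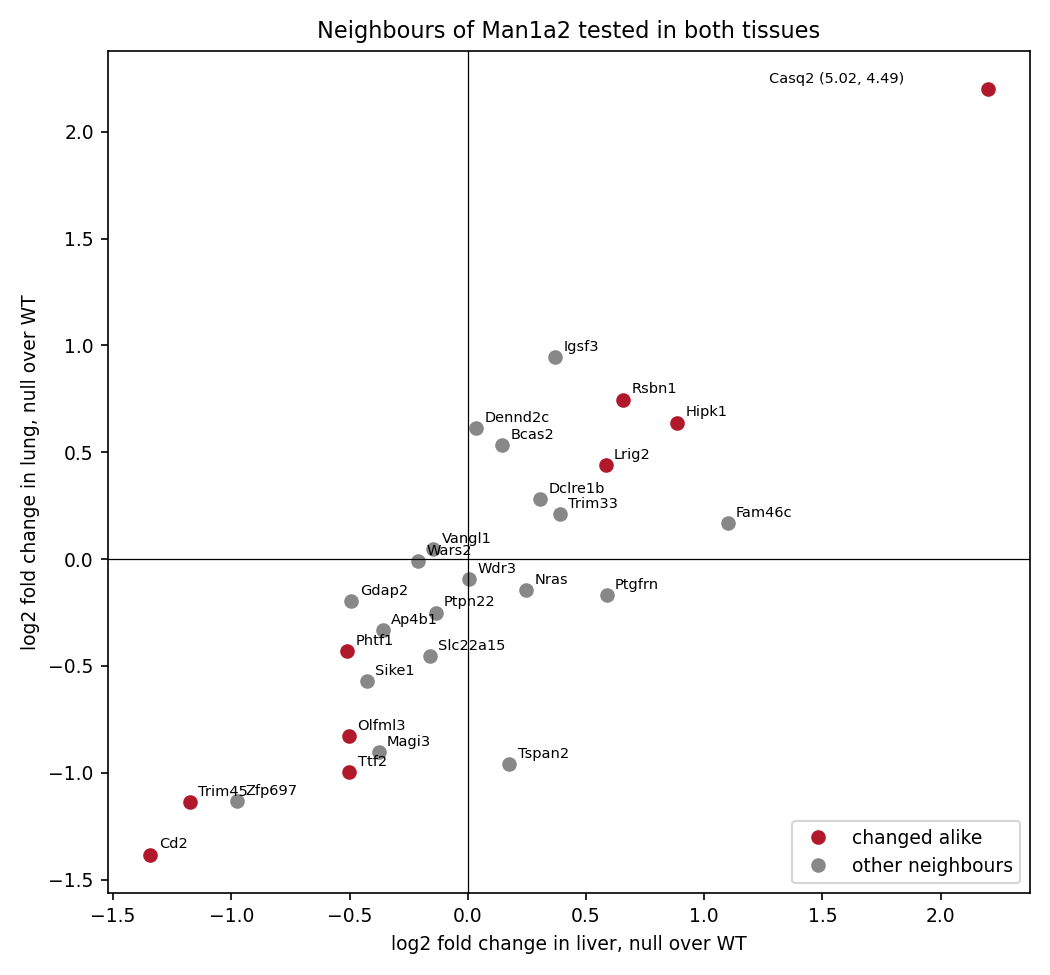
Log2 fold change in lung against that in liver (null over WT) for the 28 neighbours tested in both tissues, with the 9 that changed alike in red and the rest in grey. Casq2 lies off the scale, is drawn at the corner, and has its values (liver, lung) beside it. Most points fall in the lower left and upper right of the plot.

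Among the members nearest to Man1a2, Fam46c (also known as Tent5c), a poly(A) polymerase that stabilises mRNA, lies on the centromeric side. Fam46c had 88.5, 66.9 and 63.6 CPM in WT liver and 152, 187 and 130.2 in null liver, with every null liver above every WT liver. Its log2 fold change in liver was 1.10 ± 0.18 (adjusted p = 0.00661, edgeR), and it stayed called whichever liver library was left out. The lungs had 21.3, 29.2 and 25.3 CPM in WT and 18.0, 27.4 and 39.8 in null mice, so that the groups overlapped (0.17 ± 0.31).

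Gdap2, a ganglioside-induced differentiation protein, had 25.3, 29.4 and 26.7 CPM in WT liver and 19.7, 20.8 and 17.3 in null liver. Every null liver was lower, with a log2 fold change of -0.49 ± 0.11 (adjusted p = 0.0184, edgeR). The call on Gdap2 was lost without WT liver 2 (-0.43, adjusted p = 0.0602) or WT liver 3 (-0.50, adjusted p = 0.0683). Its lungs overlapped, at 32.7, 29.6 and 34.2 CPM in WT and 22.9, 29.2 and 32.1 in null mice (-0.20 ± 0.17). Wdr3, a nucleolar protein of ribosome assembly that starts beside Gdap2, had 28.4, 30.3 and 29.2 CPM in WT liver and 26.3, 30.4 and 31.6 in null liver. In lung Wdr3 had 33.0, 33.5 and 36.2 CPM in WT and 31.1, 28.5 and 36.7 in null mice. Both groups of Wdr3 overlapped in both tissues, with log2 fold changes of 0.01 ± 0.10 in liver, whose sign turned under 5 alternatives, and -0.09 ± 0.15 in lung.

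On the telomeric side Vtcn1, the immune ligand B7-H4, is nearest. It had 1 to 6 reads in each liver library and was not tested there. Its lung values were 1.75, 2.496 and 1.86 CPM in WT and 6.86, 1.04 and 0.536 in null mice, with null lung 1 the highest of all. Its log2 fold change was 0.46 ± 0.93 with all libraries and -1.36 ± 0.37 (adjusted p = 0.0237, edgeR) without null lung 1, so that 1 library set the sign.

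Trim45 and Ttf2 follow, on opposite strands, and both were lower in null mice in both tissues. Trim45, a ubiquitin ligase of the tripartite motif family, had 1.39, 1.24 and 1.41 CPM in WT liver and 0.709, 0.587 and 0.486 in null liver. Lung libraries held 4.19, 4.23 and 4.38 CPM in WT and 2.73, 1.201 and 1.90 in null mice. No null library reached a WT library of its tissue. Its log2 fold change was -1.17 ± 0.26 in liver (adjusted p = 0.0170), -1.14 ± 0.36 in lung (adjusted p = 0.135) and -1.16 ± 0.21 on the mean (adjusted p = 0.0039, edgeR). The Trim45 call in liver was lost without WT liver 1 (-1.15, adjusted p = 0.0626) or WT liver 3 (-1.14, adjusted p = 0.0719). In lung it was called without null lung 1 (-1.46 ± 0.26, adjusted p = 0.00554).

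Ttf2, which releases RNA polymerase II from DNA at the end of transcription, had 17.5, 16.5 and 15.8 CPM in WT liver and 12.3, 11.4 and 11.6 in null liver. In lung it had 12.9, 13.4 and 14.9 CPM in WT and 8.64, 5.74 and 6.24 in null mice. The groups were apart in both tissues. Its log2 fold change was -0.50 ± 0.11 in liver (adjusted p = 0.0153) and -0.998 ± 0.23 in lung (adjusted p = 0.0835), and -0.75 ± 0.11 on the mean (adjusted p = 0.00156, edgeR). The liver call of Ttf2 was lost without WT liver 1 (-0.46, adjusted p = 0.0633) or WT liver 3 (-0.53, adjusted p = 0.0538), and in lung it was called without null lung 1 (-1.19 ± 0.16, adjusted p = 0.0021). The difference between lung and liver changes was -0.50 ± 0.22 (adjusted p = 0.353). It was -0.67 (adjusted p = 0.0387) without null lung 1, but -0.66 (adjusted p = 0.0708) without both libraries numbered null 1.

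Cd2 and Igsf3, both of the immunoglobulin superfamily, lie next to each other and moved in opposite directions. Cd2, an adhesion protein of T and NK cells, had 1.25, 1.39 and 1.44 CPM in WT liver and 0.766, 0.294 and 0.551 in null liver. The lungs had 0.889, 0.901 and 1.10 CPM in WT and 0.265, 0.366 and 0.463 in null mice. All null libraries were below the WT libraries, at 7 to 27 reads against 26 to 55. Its log2 fold change was -1.34 ± 0.36 in liver (adjusted p = 0.0312), -1.38 ± 0.35 in lung (adjusted p = 0.095) and -1.36 ± 0.26 on the mean (adjusted p = 0.00447, edgeR). The liver call was lost when any 1 WT liver, or null liver 3, was left out (adjusted p = 0.0685 to 0.103), and in lung Cd2 was called without null lung 1 (-1.21 ± 0.33, adjusted p = 0.0261). In bulk tissue, fewer cells of a type and less RNA per cell cannot be told apart. A list of 8 other T and NK cell genes summed to 7.50 to 10.5 CPM in WT liver and 7.91 to 8.62 in null liver. In lung the list summed to 4.70 to 11.8 CPM in WT and 5.16 to 29.6 in null mice, with the highest in null lung 1. None of the list's genes was at 0 in all libraries of a tissue, and 0 of the 6 tested were called in either tissue, by edgeR. Of all genes, 26.9% were called in liver and 0.327% in lung. With so few calls in lung, 0 of 6 there does not show that the list was unchanged.

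Igsf3 had 41.8, 39.8 and 39.5 CPM in WT lung and 80.6, 72.0 and 80.5 in null lung. Null lung 1 lay with the other null libraries here, and all were far above WT. The log2 fold change was 0.94 ± 0.12 (adjusted p = 0.04997, edgeR), just inside the threshold, and the call was lost when any lung library but null lung 1 was left out. In liver it had 4.47, 3.87 and 5.21 CPM in WT and 6.04, 5.53 and 5.96 in null mice, again apart (0.37 ± 0.17, adjusted p = 0.152). On the mean it was 0.66 ± 0.08 (adjusted p = 0.000807, edgeR), called whichever library was left out. With liver and lung averaged Igsf3 was still called (adjusted p = 0.0183, limma). The difference between lung and liver changes was 0.57 ± 0.17 (adjusted p = 0.18).

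From Olfml3 outwards, 9 members lie close together and their directions were mixed. Olfml3, a secreted olfactomedin-like protein, had 9.17, 12.9 and 9.38 CPM in WT liver and 8.48, 6.76 and 6.93 in null liver. Its lung values were 135, 132 and 136 CPM in WT and 63.8, 86.8 and 76.2 in null mice. It was lower in every null library of both tissues. The log2 fold change was -0.50 ± 0.18 in liver (adjusted p = 0.0799), -0.83 ± 0.15 in lung (adjusted p = 0.0641) and -0.66 ± 0.12 on the mean (adjusted p = 0.00402, edgeR). Without null lung 1, Olfml3 was called in lung (-0.72 ± 0.10, adjusted p = 0.0021).

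Hipk1, a nuclear kinase of homeodomain proteins and the gene next to Olfml3 on the same strand, moved the other way. It had 122, 95.8 and 108 CPM in WT liver and 201, 202 and 199 in null liver. Lung libraries held 201, 236 and 214 CPM in WT and 221, 385 and 409 in null mice. Its livers were well apart, and in lung null lung 1 alone fell within the WT range. The log2 fold change was 0.89 ± 0.12 in liver (adjusted p = 0.00374) and 0.64 ± 0.26 in lung (adjusted p = 0.198), or 0.87 ± 0.11 in lung without null lung 1 (adjusted p = 0.00154, edgeR).

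Dclre1b, the telomere nuclease Apollo, had 20.5, 21.1 and 19.1 CPM in WT liver and 25.6, 26.4 and 22.9 in null liver. Ap4b1, which starts beside it, had 44.1, 30.8 and 36.0 CPM in WT liver and 29.9, 27.2 and 29.4 in null liver. The livers were apart for both genes, with Dclre1b higher and Ap4b1 lower in null mice. Neither passed the adjusted threshold there, at 0.30 ± 0.10 (adjusted p = 0.0603) for Dclre1b and -0.36 ± 0.14 (adjusted p = 0.0908, edgeR) for Ap4b1. In lung Ap4b1 had 24.8, 20.1 and 24.0 CPM in WT and 19.1, 14.7 and 20.8 in null mice, which overlapped (-0.33 ± 0.19). On the mean Ap4b1 was called, at -0.35 ± 0.11 (adjusted p = 0.0461, edgeR), a call lost when 9 of the 12 libraries were left out in turn. With liver and lung averaged Ap4b1 was not called (adjusted p = 0.15, limma).

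Within each library the ratio of the genes of a pair does not depend on depth or scaling. The log2 ratio of Dclre1b to Ap4b1 counts was -0.86 ± 0.29 (SD, n = 3) in WT liver and -0.21 ± 0.16 in null liver, a difference of 0.65 with no overlap. In lung it was -0.44 ± 0.25 in WT and 0.16 ± 0.30 in null mice, a difference of 0.60 with overlap. The log2 ratio of Wdr3 to Gdap2 was 0.12 ± 0.06 in WT liver and 0.61 ± 0.23 in null liver, a difference of 0.50 with no overlap, and the lungs overlapped (difference 0.11). Two-sided exact permutation p-values for these 4 ratios, in that order, were 0.1, 0.2, 0.1 and 0.6, or 0.2, 0.267, 0.2 and 0.6 after Benjamini-Hochberg adjustment over the 4. This ratio test was added after the data were seen.

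Rsbn1 and Phtf1 lie in tandem and also moved in opposite directions. Rsbn1, the round spermatid basic protein, had 16.2, 15.5 and 13.8 CPM in WT liver and 24.6, 21.04 and 26.2 in null liver. In lung it had 30.1, 37.2 and 36.9 CPM in WT and 42.8, 62.5 and 69.6 in null mice. All null libraries were higher. The log2 fold change was 0.66 ± 0.12 in liver (adjusted p = 0.00947), 0.75 ± 0.21 in lung (adjusted p = 0.118) and 0.70 ± 0.13 on the mean (adjusted p = 0.00372, edgeR), and the liver call held without any 1 liver library. Without null lung 1, Rsbn1 was called in lung (0.93 ± 0.13, adjusted p = 0.00218).

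Phtf1, a putative homeodomain protein, had 13.3, 11.1 and 12.7 CPM in WT liver and 9.25, 8.49 and 8.33 in null liver. The lungs had 38.9, 35.7 and 39.4 CPM in WT and 30.2, 29.0 and 25.4 in null mice. All null libraries were lower, at -0.51 ± 0.13 in liver (adjusted p = 0.027) and -0.43 ± 0.13 in lung (adjusted p = 0.133, edgeR). In lung Phtf1 was called without null lung 1 (-0.48 ± 0.12, adjusted p = 0.0168). The liver call was lost without WT liver 1, WT liver 3, null liver 2 or null liver 3 (adjusted p = 0.0514 to 0.0989), but on the mean (-0.47 ± 0.09) it was called whichever library was left out.

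Magi3, a junctional scaffold protein, overlaps the end of Phtf1 on the other strand. The library kit marked strand, but the strand setting of the counting was not given in the sources used here, so reads in the overlap may not be told apart. Magi3 had 148, 152 and 164 CPM in WT lung and 75.9, 89.7 and 82.4 in null lung. Its lungs were far apart, at -0.90 ± 0.13 (adjusted p = 0.0541, edgeR), and -0.85 ± 0.10 (adjusted p = 0.00138) without null lung 1. In liver it had 34.7, 34.5 and 29.1 CPM in WT and 32.0, 21.8 and 21.8 in null mice, where null liver 1 lay among the WT livers. The liver change was -0.38 ± 0.17 (adjusted p = 0.131), or -0.58 ± 0.13 (adjusted p = 0.0182) without that library.

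Lrig2, a leucine-rich repeat membrane protein and the outermost member, was higher in null mice. It had 11.6, 11.5 and 12.3 CPM in WT liver and 19.7, 16.0 and 17.3 in null liver. Its lung values were 28.0, 27.005 and 29.5 CPM in WT and 33.6, 41.1 and 39.9 in null mice. The groups were apart in both tissues, at 0.58 ± 0.12 in liver (adjusted p = 0.0128) and 0.44 ± 0.14 in lung (adjusted p = 0.134, edgeR). The liver call of Lrig2 was just lost without WT liver 1 (adjusted p = 0.0508) or WT liver 3 (adjusted p = 0.0515), and in lung it was called without null lung 1 (0.52 ± 0.10, adjusted p = 0.00808). Along the chromosome, 7 pairs of members next to each other were both called on the mean effect, in the fit over all 12 libraries. Of these, 5 pairs went in opposite directions and 2 in the same one.

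**Figure D3:**
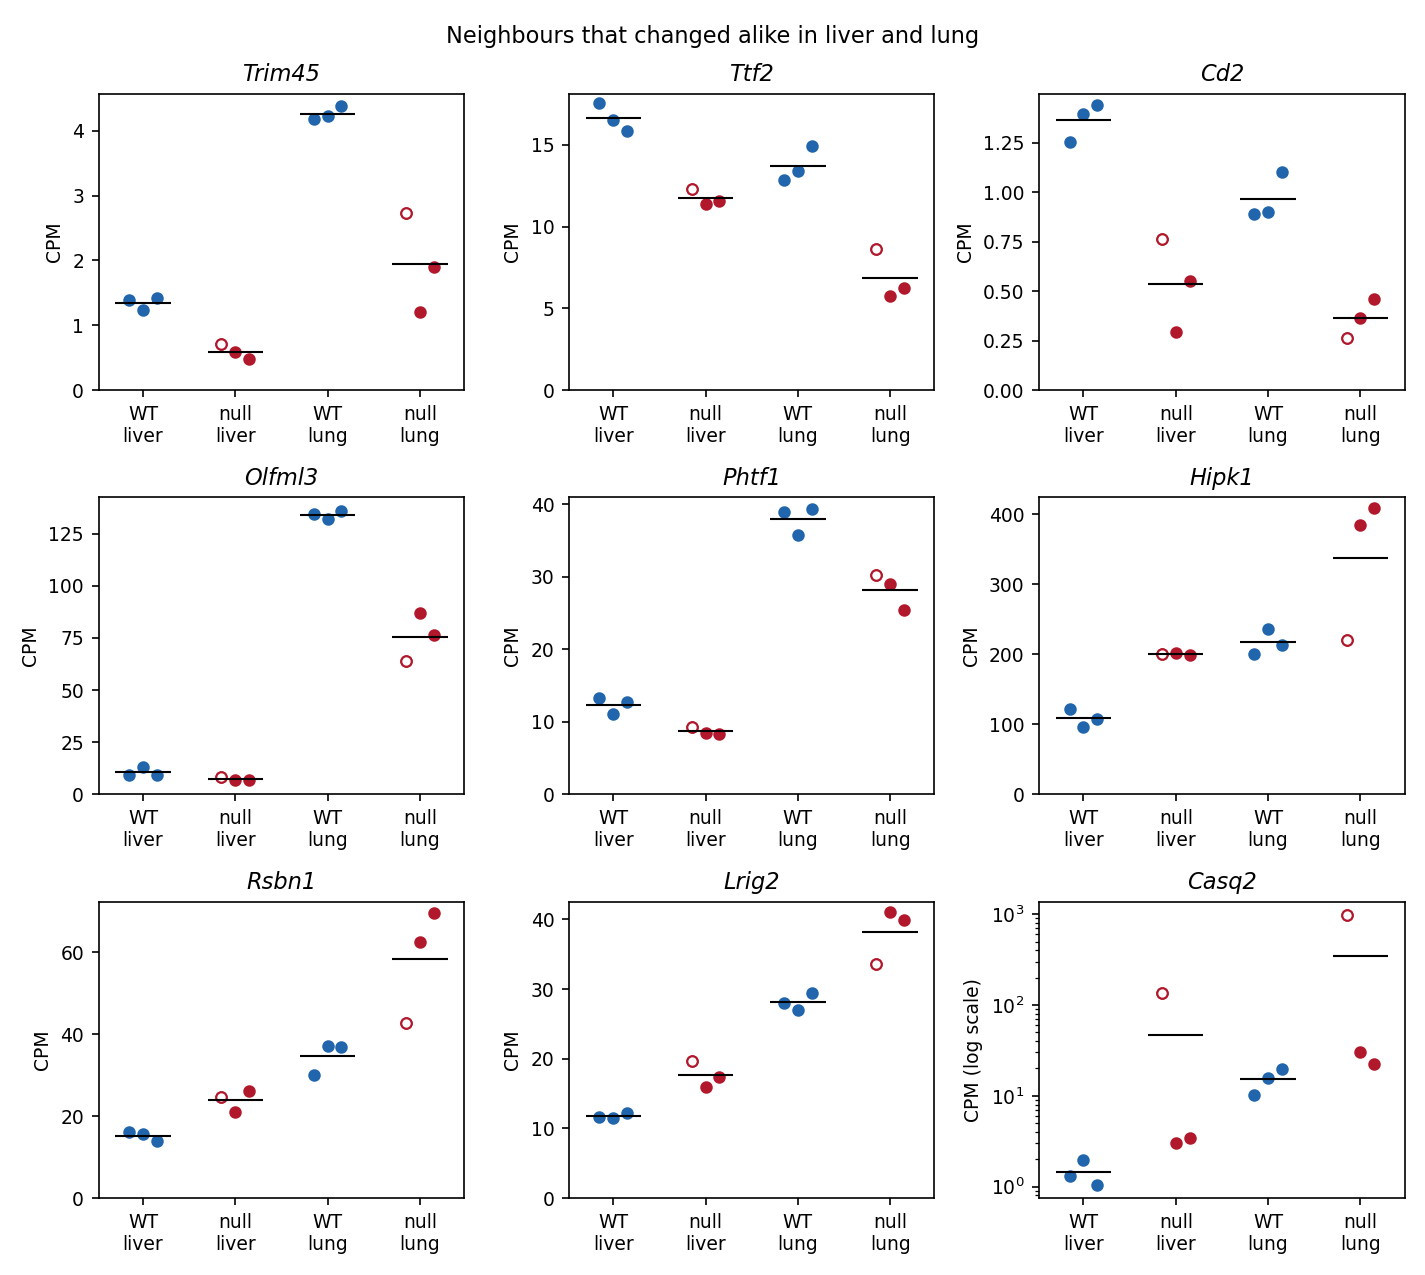
CPM of the 9 neighbours that changed alike, by group, with WT libraries in blue and null libraries in red, the open circles marking the null libraries numbered 1 and black lines the group means. The Casq2 panel has a log scale. The 5 lower genes (first 5 panels) have every null library under every WT library of the tissue, and Casq2 is very high in the open circles.

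Hao2, a peroxisomal hydroxyacid oxidase, had 22.5, 33.3 and 12.1 CPM in WT liver and 73.5, 70.3 and 55.5 in null liver. The livers were apart, at 1.56 ± 0.33 (adjusted p = 0.0139, edgeR), a call just lost without WT liver 1 (adjusted p = 0.0516). In lung 4 of 6 libraries had 0 reads of Hao2 and the others 5 and 13, so it was not tested there.

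Trim33, a ubiquitin ligase and corepressor of SMAD signalling, had 32.6, 35.2 and 31.7 CPM in WT liver and 43.4, 42.4 and 44.7 in null liver. The groups were apart, at 0.39 ± 0.09 (adjusted p = 0.0166, edgeR), a call lost without WT liver 1 (adjusted p = 0.0579) or WT liver 3 (adjusted p = 0.0721). Lung libraries held 67.9, 79.4 and 87.4 CPM in WT and 69.8, 99.5 and 102 in null mice, where null lung 1 lay within the WT range. The lung change was 0.21 ± 0.19 (adjusted p = 0.521), or 0.37 ± 0.12 (adjusted p = 0.0492) without null lung 1.

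Bcas2, a spliceosome protein, had 50.2, 49.4 and 51.3 CPM in WT lung and 64.1, 85.0 and 69.1 in null lung, with no overlap (0.53 ± 0.14, adjusted p = 0.11, edgeR, and 0.61 ± 0.12, adjusted p = 0.00642, without null lung 1). In liver it had 43.1, 48.3 and 46.0 CPM in WT and 46.4, 56.1 and 49.5 in null mice, which overlapped (0.14 ± 0.10). On the mean it was called, at 0.34 ± 0.09 (adjusted p = 0.0218, edgeR), a call lost when 6 of the 12 libraries were left out in turn. With liver and lung averaged Bcas2 was not called (adjusted p = 0.0942, limma).

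Sike1, a suppressor of the kinase IKK-epsilon, had 14.0, 14.8 and 15.4 CPM in WT liver and 13.0, 10.3 and 9.53 in null liver. In lung it had 57.0, 56.1 and 58.9 CPM in WT and 53.8, 31.0 and 31.1 in null mice. In both tissues the null library numbered 1 lay close below WT and the other null libraries lower. The mean change was -0.50 ± 0.15 (adjusted p = 0.0307, edgeR), a call lost when 9 of the 12 libraries were left out in turn (adjusted p up to 0.0676). It was -0.71 ± 0.08 (adjusted p = 6.52e-05, edgeR) without both libraries numbered null 1. With liver and lung averaged Sike1 was not called (adjusted p = 0.0961, limma).

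Zfp697, a zinc finger protein, had 2.13, 1.73 and 1.36 CPM in WT liver and 1.22, 0.401 and 1.04 in null liver. The lungs had 10.7, 9.46 and 9.05 CPM in WT and 4.36, 1.91 and 7.04 in null mice. All null libraries were lower, with a wide spread among the null lungs. The mean change was -1.05 ± 0.34 (adjusted p = 0.0421, edgeR), a call lost when 9 of the 12 libraries were left out in turn. With liver and lung averaged Zfp697 was not called (adjusted p = 0.111, limma). In GENCODE its gene model spans steroid dehydrogenase genes on the other strand.

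Casq2, Ampd1 and Tbx15 were high in the libraries numbered null 1, which held muscle RNA. Casq2, which binds calcium in the sarcoplasmic reticulum of heart muscle, had 1.31, 1.98 and 1.05 CPM in WT liver and 134, 3.04 and 3.40 in null liver. Its lung values were 10.3, 15.7 and 19.8 CPM in WT and 981, 30.3 and 22.6 in null mice. Every null library was above every WT library, and those numbered null 1 were far above the rest. Its log2 fold change was 5.02 ± 1.54 in liver (adjusted p = 0.0475) and 4.49 ± 1.60 in lung (adjusted p = 0.161). The liver call was lost when any 1 WT liver was left out (adjusted p = 0.13 to 0.15). Without both libraries numbered null 1 the change was 1.16 ± 0.30 (adjusted p = 0.0269) and 0.79 ± 0.27 (adjusted p = 0.0497, edgeR). In the remaining libraries the 7 cardiac genes summed to 7.54 to 10.2 CPM in WT liver and 7.26 and 7.45 in null liver. In lung they summed to 356 to 594 CPM in WT and 914 and 768 in null mice, higher in null mice as Casq2 was. The 7 skeletal muscle genes in these lungs summed to 26.1 to 34.2 CPM in WT and 67.9 and 55.1 in null mice. The part of either list in the change of Casq2 was not tested.

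Tbx15, a T-box factor of limb and muscle development, had 0.328, 0.347 and 0.319 CPM in WT lung and 123, 0.209 and 0.317 in null lung. In liver it had 0.109, 0.0929 and 0.0786 CPM in WT and 16.7, 0.134 and 0.0648 in null mice. It was high in null liver 1 and null lung 1 alone. Its call on the mean, 6.41 ± 1.88 (adjusted p = 0.0305, edgeR), ended without these, at -0.08 ± 0.36 (adjusted p = 0.904). Ampd1, the AMP deaminase of skeletal muscle, had 21.7 CPM in null liver 1 and 23.9 in null lung 1 and 2 to 12 reads in each other library, and was not tested.

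**Figure D4:**
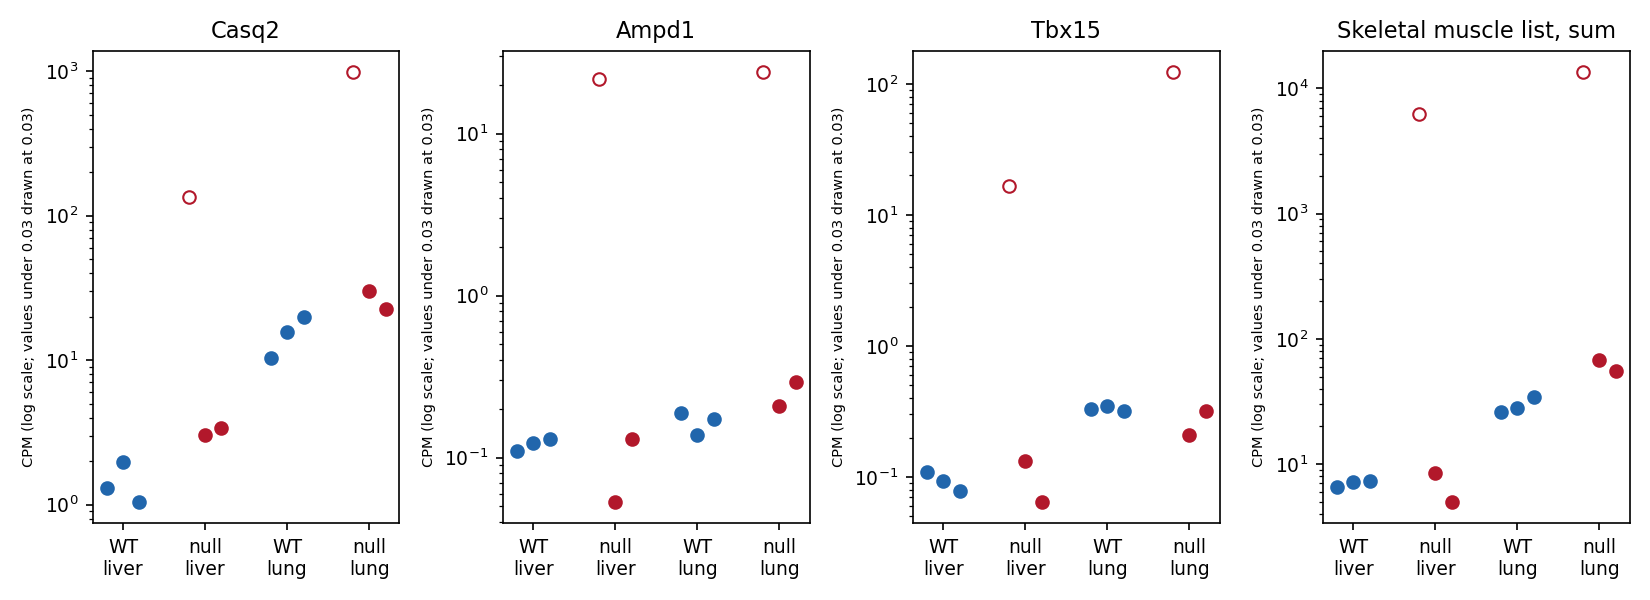
CPM on log scales of Casq2, Ampd1 and Tbx15 and the summed CPM of the 7 skeletal muscle genes in each library, WT in blue and null in red, with open circles for the null libraries numbered 1. The open circles stand far above all other libraries of their tissue in all panels.

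In 12 further members tested, none was called by edgeR in liver, in lung, on the mean or for the difference between tissues with all libraries included. Tspan2 had 285, 329 and 370.2 CPM in WT lung and 57.0, 205 and 244 in null lung, with every null lung lower (-0.96 ± 0.51), and was called only without null lung 1 (-0.55 ± 0.14, adjusted p = 0.0213, edgeR). Dennd2c, a Rab activator, had 15.6, 12.8 and 12.8 CPM in WT lung and 21.4, 20.8 and 20.8 in null lung, apart in lung (0.61 ± 0.16, adjusted p = 0.101), and called there without null lung 1 (adjusted p = 0.0171, edgeR), but not apart in liver (0.04 ± 0.19). Nras stood at 0.25 ± 0.11 in liver and -0.14 ± 0.16 in lung, and was called in lung without null lung 1 (-0.29 ± 0.10, adjusted p = 0.0486, edgeR). The transporter Slc22a15 stood at -0.16 ± 0.16 in liver and -0.45 ± 0.18 in lung. Ptgfrn (0.59 ± 0.46 and -0.17 ± 0.16), the mitochondrial tryptophan tRNA synthetase Wars2 (-0.21 ± 0.19 and -0.01 ± 0.28), the planar polarity protein Vangl1 (-0.15 ± 0.21 and 0.05 ± 0.19) and the lymphocyte phosphatase Ptpn22 (-0.14 ± 0.16 and -0.25 ± 0.33) overlapped between genotypes in both tissues. Ptgfrn had 37.5 CPM in null liver 1 and 10.1 and 13.4 in the other null livers. Without null liver 1 its liver change was -0.20 ± 0.21, so that this library set the sign.

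Syt6, a synaptotagmin, was tested in lung alone and had 8.07, 16.1 and 11.8 CPM in WT and 1.14, 7.88 and 5.34 in null mice (-1.32 ± 0.67). Cd101, an immune membrane protein, stood at -0.47 ± 0.68 in lung and Mab21l3 at 1.26 ± 0.58, with 1.86 CPM in null lung 1 and at most 0.574 in the others. Without null lung 1, Cd101 stood at 0.0015 ± 0.29 and Mab21l3 at 0.47 ± 0.34. Tshb, the thyrotropin beta subunit, had 0 reads in every liver and 35 to 171 reads in each lung but null lung 1, which had 1. Tshb lies within the GENCODE model of Tspan2 on the other strand, so its reads may not be told apart from those of Tspan2. The lectin Reg4 and the meiotic protein Sycp1 had at most 8 reads in any library. Nhlh2, a neuronal transcription factor, had 0 reads in all 12, which allows up to 0.112 CPM in the shallowest.

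Whether a change differed between tissues was tested as the lung effect less the liver effect. By edgeR 0 of 35 members were called, where 0.371% of all genes were, and 4 members had an unadjusted p under 0.05 (Fam46c, Igsf3, Magi3, Ttf2), or 11.4% against 13.9% of all genes. DESeq2 called 1 of 35, Igsf3, against 3.05% of all genes. Without null lung 1 edgeR called 1 of 35, Ttf2, against 5% of all genes. Without both libraries numbered null 1 it called 0, against 5.18%.

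The members were next set beside the other genes of the segment. Between the outermost members lie 22 further genes of the tables, of which 15 could be tested on the mean effect and 2 were called (13.3%). Over all 75 tested non-member genes within 5 Mb of Man1a2, these 15 included, 21 were called (28%), against 26% of all genes. Without both libraries numbered null 1 these counts were 3 of 15 (20%) and 32 of 75 (42.7%), against 39.6% of all genes. None of 7 genes between the members changed alike in both tissues. Over all 65 non-member genes within 5 Mb, these 7 included, 9 changed alike, against 13.1% of all genes.

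Over all genes of chromosome 3, the share called on the mean effect was 36.8% within 2.5 Mb (14 of 38) and 34.7% from 2.5 to 5 Mb (25 of 72). It was 20.8% from 5 to 10 Mb, 19.4% from 10 to 20 Mb, 23.4% beyond and 26.1% on other chromosomes. Without null lung 1 these shares were 36.8%, 49.3%, 36.7%, 29.7%, 35.7% and 39.3%, so that the nearest class no longer stood above other chromosomes. Genes that changed alike made up 16.7% (4 of 24) within 2.5 Mb and 20.3% (14 of 69) from 2.5 to 5 Mb. They made up 7.37%, 9.27% and 8.87% in the farther classes and 13.3% on other chromosomes. Genes of a class are not replicates, and these shares are a description with no test.

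**Figure D5:**
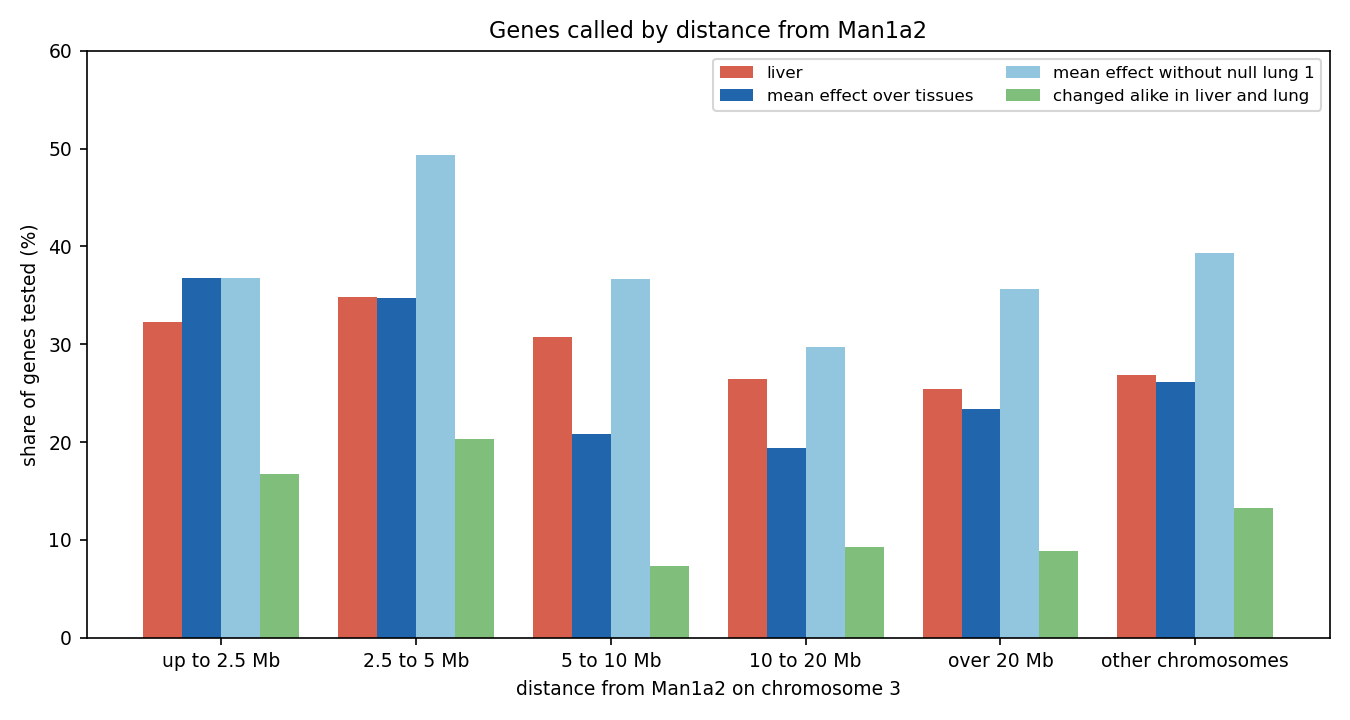
Share of genes tested that were called in liver, on the mean effect over tissues, on the mean effect without null lung 1, and that changed alike in both tissues, in classes of distance from Man1a2 on chromosome 3 and on other chromosomes. Genes that changed alike reach 16.7% and 20.3% in the 2 nearest classes, at most 9.27% in the farther ones and 13.3% on other chromosomes.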

How the data were processed

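Poly(A) RNA of 12 libraries was sequenced with a strand-marking kit. Per the labels, the authors aligned reads with STAR 2.5.2a to mm10, and FastQC and DESeq2 are named in the submitters' processing notes. The deposited tables hold raw counts per gene symbol. The counting program, annotation and strand setting were not given in the sources used here. In every count file, 27 symbols had been turned into dates.

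Counts were tested with edgeR 4.0.16 (R 4.3.3) by the quasi-likelihood test after filterByExpr and TMM scaling, within each tissue (3 null against 3 WT libraries) and over all 12. DESeq2 1.42.0 and limma 3.58.1 were alternatives. Calls needed a Benjamini-Hochberg adjusted p under 0.05 over all genes and a 1.2-fold change. CPM values used TMM scaling within a tissue, and CPM per kb used total counts and GENCODE M21 exon lengths. Symbols matched GENCODE for 98.41% of rows, and 32 members had a RefSeq start region. The permutation test used log2(CPM + 0.5). The fits were tested on simulated counts.

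The members, gene lists and tests were chosen with earlier results of these data known. Libraries are given in replicate order for each member called in any main test or changed alike, and for the 3 nearest on each side. Nothing in the labels ties libraries to separate litters, so p-values measure the spread between these samples. Floors (3 counts) cover counting error alone. Deviations of liver and lung libraries of the same genotype and number correlated at 0.14 to 0.45 in all 6 pairs. They may therefore be tissues of 1 pup, which the labels do not state. WT and null libraries of a number correlated at -0.08 to 0.13 and were not paired in the main fits. The 2 ranges nearly meet, so pairing by pup remains an inference.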

Additional observations from a re-analysis of the deposited data

How the results depend on the processing

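Of 1051 recomputed values of single members and Man1a2, 854 kept their direction and side of the threshold, 115 lost a call, 66 gained one and 16 turned sign. These values cover Man1a2, the members called in a main fit or changed alike, and the 3 nearest on each side. The 12 liver calls held in 137 of 167 alternatives and the 18 calls on the mean effect in 278 of 356. In lung the count of members called was 0 with DESeq2 size factors, 0 with no filter beyond 1 count, 0 with the replicate block, 2 with upper quartile factors, 2 with at least 10 counts in every library, 10 by DESeq2, 10 with all 12 libraries in 1 fit and 18 without both libraries numbered null 1 (chosen after seeing the data). The shares of all genes called in lung were, in that order, 0.0128%, 0%, 0%, 0.699%, 1.46%, 12%, 14.1% and 37%. The 12 liver calls became 7 in the fit of all libraries, against 11.9% of all genes. The replicate block gave 10 in liver, against 23% of all genes. With genotype and number as a random term 13 were called on the mean effect, against 20%. Averaging liver and lung of a genotype and number gave 11, against 13.7%. DESeq2 called 1 member for a difference between tissues, against 3.05% of all genes. Leaving out each library gave 4 to 14 members in liver (11.3% to 23.8% of all genes) and 0 to 18 in lung (0% to 37%). It gave 10 to 20 on the mean (16.8% to 39.1%) and 4 to 13 changed alike (7.51% to 23.1%). For a difference between tissues it gave 0 to 1 (0% to 5%). Without null lung 1, the share of chromosome 3 genes called in lung was 37.5% within 2.5 Mb and 47.2% from 2.5 to 5 Mb. On other chromosomes it was 37.2%. On the mean it was 49.3% from 2.5 to 5 Mb, against 39.3% on other chromosomes. Why these counts and shares moved was not tested.

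Man1a2 passed the threshold in liver with upper quartile factors (-0.58) and DESeq2 (-0.47), and in lung with DESeq2 (-0.999), the fit of all libraries (-1.01) and without both libraries numbered null 1 (-0.95). Leaving out each library gave -0.64 to -0.27 in liver, -1.16 to -0.92 in lung and -0.82 to -0.64 on the mean. The difference in log2 ratio of Dclre1b to Ap4b1 ran from 0.52 to 0.80 in liver and 0.49 to 0.77 in lung, and that of Wdr3 to Gdap2 from 0.37 to 0.59 in liver and -0.0094 to 0.23 in lung (an alternative added after seeing the data). Signs turned when libraries were left out for Wdr3 in liver (-0.046 to 0.084), Vtcn1 in lung (-1.36 to 0.94) and on the mean (-1.06 to 0.079), Tbx15 in lung (-0.32 to 7.52), Fam46c in lung (-0.15 to 0.41) and Hao2 on the mean (-0.95 to 3.15). They turned too for Wdr3 in liver with upper quartile factors (-0.10) and at least 10 counts (-0.023), for Vtcn1 in lung with the replicate block (-0.42), and without both libraries numbered null 1 for Wdr3 (0.022) and Tbx15 (-0.082) on the mean and Vtcn1 (-1.36) and Tbx15 (-0.32) in lung. Among members outside these single values, signs turned without both libraries numbered null 1 for Ptgfrn (-0.20), Tspan2 (-0.087) and Dennd2c (-0.095) in liver. The same held for Vangl1 (-0.050) and Cd101 (0.0015) in lung, and Ptgfrn (-0.15) and Nras (-0.038) on the mean.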
